A study of Mus musculus with 8 samples.

Results

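The genes described here flank Ptprc, the gene of CD45, on mouse chromosome 1. They are 57 listed genes, Ptprc included, that lie within 10 Mb of it by the RefSeq gene table of GRCm38.p6, with Ctse and Il10 left out of the list. The listed genes reach from Cd55, 7.63 Mb below Ptprc, to Rgs1, 6.18 Mb above it, and 47 lie on the side of lower coordinates. Of the 57 genes, 54 have a probe set with exactly 1 gene symbol, out of 22180 genes with such a probe set. The 52 with a mean level high enough for testing stand among 13308 tested genes. Arl8a and Etnk2 had no such probe set, Zc3h11a was found on probe sets with several symbols alone, and Nuak2 and Dstyk read too low to be tested.

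The position of these genes ties them to the design of the experiment. CD45 is a transmembrane tyrosine phosphatase of all nucleated blood cells that removes the inhibitory phosphate from the kinase Lck and so sets the threshold of the T cell receptor. Its allelic forms CD45.1 and CD45.2 are told apart by antibodies, which lets transferred cells be traced inside a host. A mouse strain made congenic for one form can carry, beside the selected allele, a stretch of neighbouring chromosome from the donor strain.

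Gene expression was measured on 8 Affymetrix arrays, 4 for each of the groups compared. Naive CD4+CD62L+ T cells were taken from wt mice, which carried CD45.1, and from Irak1-/- mice, which carried CD45.2. Both were injected in equal numbers into the same Rag1-/- hosts, which lack mature T and B cells of their own. Transferred naive CD4+ T cells cause colitis in such hosts. The labels give C57BL/6 as the strain of both groups, and IRAK1 is a kinase that relays signals of IL-1 family and Toll-like receptors. CD3+CD4+ cells with 1 or the other CD45 form were sorted from mesenteric lymph nodes on day 14, with a stated purity above 99.5%. Each replicate pooled 2 hosts and gave 1 array of each genotype, so that the arrays form 4 pairs. All wt cells were CD45.1 and all Irak1-/- cells CD45.2, so an effect of Irak1, of the CD45 allele or of the DNA beside it cannot be told apart here.

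Levels are on a log2 scale, the median of an array lay between 4.25 and 4.31, and 4 arrays a group limit the precision. Irak1 read 7.16, 6.89, 6.64 and 6.39 on the wt arrays of replicates 1 to 4 and 6.93, 6.83, 7.0 and 6.61 on the Irak1-/- arrays. These ranges overlap, and they do not check the genotype, since the labels do not say which part of the gene was deleted. The Irak1-/- array of replicate 3 stood apart, correlating with the others at 0.957 to 0.970 where the other 7 correlated among themselves at 0.976 to 0.986. Of 10 listed T cell markers 8 were measured, none was at an unadjusted p under 0.05, and Cd3e, a chain of the T cell receptor complex, had means of 10.73 in wt and 10.69 in Irak1-/- arrays. Of 12 listed myeloid markers 11 were measured, and their mean level over the list ran from 4.80 to 5.11 on wt arrays and from 5.89 to 6.36 on Irak1-/- arrays. Lyz2, Tyrobp, Fcer1g and H2-Aa of that list passed the test across all genes, and Cd14 lay under every array median on all arrays. The B cell list had mean levels of 3.88 to 4.15 in wt and 3.92 to 4.10 in Irak1-/- arrays, and the NK and CD8 T cell list 5.59 to 5.98 and 5.47 to 5.81. In the latter list 3 of 7 genes were lower on the Irak1-/- arrays at an unadjusted p under 0.05. These were Klrd1 at -0.55, Klrk1 at -0.51 and Cd8a at -0.55, and none passed the adjusted threshold. The others were Cd8b1 at 0.31, Ncr1 at 0.05, Klrb1c at 0.04 and Eomes at -0.05, so the list did not move as 1. In such bulk samples, fewer cells of a type and less RNA per cell cannot be told apart.

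None of the 52 tested genes passed the test across all genes, which took an adjusted p under 0.05 in limma with the pairs as a block. Over all genes tested that threshold was passed by 0.0751%, 0.0676% in the higher and 0.00751% in the lower direction. The genes nearest to it were Ptprv, lower on the Irak1-/- arrays, and Gm19705 and Ube2t, higher on them. An unadjusted p under 0.05 was reached by 10 of the 52 genes, 4 higher (Gm19705, Ube2t, Rgs2 and Nav1) and 6 lower (Ptprv, Cd55, Ddx59, Pkp1, Eif2d and Lmod1), where 6.7% of all genes did so, 2.88% higher and 3.82% lower. The list was drawn up with earlier results of these data known, and its share of 19.2% is therefore not evidence of its own. Among all 102 tested genes within 10 Mb of Ptprc, listed or not, 11 reached that p, or 10.8%, and the only one outside the list was Ctse, the gene of cathepsin E, with a log2 difference of -3.93 (limma adjusted p = 0.000133). The median log2 difference was -0.01 over the 52 genes and -0.03 over all genes tested.

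Promoters of Gm19705, Ube2t and Rgs2 are shown because these 3 genes had the smallest p on the higher side and their promoters differ in base composition. RefSeq promoter windows of GRCm38.p6, from 250 bases before to 50 bases after the start of a gene, were found for 51 of the 57 genes, and Ptprv was not among them. Capitals mark the letters CCAAT, a box bound by the factor NF-Y in many promoters of dividing cells.
Gm19705, chr1:136683146-136683445, plus strand: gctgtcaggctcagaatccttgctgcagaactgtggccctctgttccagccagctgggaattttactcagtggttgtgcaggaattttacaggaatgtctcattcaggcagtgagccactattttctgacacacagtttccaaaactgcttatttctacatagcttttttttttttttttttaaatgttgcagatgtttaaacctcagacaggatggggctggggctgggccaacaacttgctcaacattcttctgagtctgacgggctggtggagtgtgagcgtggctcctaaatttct
Ube2t, chr1:134962315-134962614, plus strand: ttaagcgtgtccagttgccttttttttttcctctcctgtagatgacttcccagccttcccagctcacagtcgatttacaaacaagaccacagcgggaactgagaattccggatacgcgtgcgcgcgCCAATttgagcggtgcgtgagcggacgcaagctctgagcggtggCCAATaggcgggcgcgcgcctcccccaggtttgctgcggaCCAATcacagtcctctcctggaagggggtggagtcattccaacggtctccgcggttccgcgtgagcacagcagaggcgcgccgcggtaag
Rgs2, chr1:144004100-144004399, minus strand: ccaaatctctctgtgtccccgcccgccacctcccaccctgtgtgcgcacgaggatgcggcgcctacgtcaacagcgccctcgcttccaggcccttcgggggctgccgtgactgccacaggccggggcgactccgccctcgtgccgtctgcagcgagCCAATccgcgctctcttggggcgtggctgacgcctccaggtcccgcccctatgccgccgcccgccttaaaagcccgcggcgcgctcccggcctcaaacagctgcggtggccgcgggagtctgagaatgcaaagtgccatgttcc

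The Ube2t window holds CCAAT 3 times, at positions -124, -80 and -40 counted from the start site, and the Rgs2 window 1 time. The Gm19705 window shown, the first of 2, does not hold it. The second Gm19705 window holds it on the minus strand at -5, so its absence depends on the window chosen. Searched on both strands, CCAAT occurs in 37.4% of all 32851 promoter windows of this length and in 38.5% of the 65 windows of the listed genes, while 3.37% of all windows hold it 3 or more times. The Ube2t and Rgs2 windows hold 28 and 33 CpG dinucleotides and the Gm19705 window shown holds 2. The median was 7 over all windows and 19 over those of the listed genes. The GC box GGGCGG occurs in 58.5% of the listed genes' windows and 35.7% of all. The TATA letters TATAAA occur in 4.62% and 13.6%, and the cAMP response element TGACGTCA in 3.08% and 1.79%. A match of letters is a description of the window and not a site of binding.

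CD45 itself differed little between the groups. Ptprc read 10.86, 10.87, 11.01 and 10.84 on the wt arrays of replicates 1 to 4 and 11.06, 11.05, 10.95 and 10.96 on the Irak1-/- arrays. The groups overlap, with 3 of 4 pairs higher on the Irak1-/- side and the wt array of replicate 3 above the other wt arrays. The log2 difference was 0.11 (95% confidence interval -0.13 to 0.36, limma adjusted p = 0.918). The interval leaves out a difference above 0.36. Proteins that act with CD45 at the T cell receptor were described by a list of 12 genes, of which 10 were measured. Lck and Cd247 were listed but had no value here. None of the 10 had an unadjusted p under 0.05, against 6.7% of all genes, and their median difference was -0.03. The 10 included Ptprcap, the CD45-associated protein, at 9.27 ± 0.039 in wt against 9.24 ± 0.0794 (SD, n = 4 arrays each), and Csk, the kinase that opposes CD45 at Lck, at 7.53 ± 0.0841 and 7.43 ± 0.0569.

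Ptprv had the smallest p of the listed genes. It is known as Esp or OST-PTP, belongs to the same family of receptor-type phosphatases as Ptprc, and is classed by RefSeq as a transcribed pseudogene in the mouse. Its probe set, 17227221, read 5.87, 5.88, 5.44 and 5.76 on the wt arrays and 5.19, 4.78, 4.72 and 4.85 on the Irak1-/- arrays. Every Irak1-/- array lay below every wt array, and the pair differences were -0.68, -1.10, -0.73 and -0.91. The mean of -0.85 (SE 0.116, 95% confidence interval -1.12 to -0.59), a 1.81-fold lower level, missed the threshold at a limma adjusted p of 0.0559. It passed, at adjusted p from 0.0328 to 0.0477, in 4 of 13 alternative fits. Its unadjusted p stayed under 0.05 in all 13, as did those of Gm19705, Ube2t, Rgs2, Cd55 and Ddx59. The other 4 did not keep it: Eif2d reached 0.102 without replicate 4, Lmod1 0.118 without replicate 1 and 0.0896 without replicate 4, Pkp1 0.067 without replicate 4 and 0.0787 without pairs and without the array that stood apart, and Nav1 0.275 with the mean of its probe sets (limma, unadjusted p).

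Gm19705, a long noncoding RNA gene between Zfp281 and Ptprc, was on the higher side. It read 5.11, 4.85, 6.06 and 5.33 on wt arrays and 5.94, 5.93, 6.55 and 6.36 on Irak1-/- arrays. The wt array of replicate 3 lay above 2 of the Irak1-/- arrays, so the groups overlap, while within pairs the Irak1-/- array was higher by 0.83, 1.08, 0.49 and 1.03. The difference was 0.86 on the log2 scale (SE 0.128), a 1.81-fold higher level, with a limma adjusted p of 0.0784. Without replicate 3 it was 0.98 and passed (adjusted p = 0.046), and without the pairs as a block the adjusted p was 0.653. Zfp281, the zinc finger gene next to it, had a difference of 0.00.

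Ube2t, the ubiquitin-conjugating enzyme of the Fanconi anaemia pathway of DNA crosslink repair, read 6.06, 5.73, 5.17 and 5.60 on wt arrays and 6.88, 6.69, 5.85 and 6.05 on Irak1-/- arrays. The groups overlap because the level also differed between replicates, being highest in replicate 1 and lowest in replicate 3 in both genotypes. The pair differences were 0.82, 0.96, 0.68 and 0.45, with a mean of 0.72 (SE 0.12), a 1.65-fold higher level whose limma adjusted p was 0.121. Kif14 and Aspm, a motor of cytokinesis and a spindle pole protein, share the use in dividing cells. Kif14 read 7.10, 6.98, 6.21 and 6.67 on wt and 7.44, 6.86, 5.79 and 6.39 on Irak1-/- arrays, so replicate 1 was highest and replicate 3 lowest there too. Its pair differences were 0.34, -0.13, -0.43 and -0.28, and those of Aspm -0.04, -0.24, -0.38 and 0.04. Neither gene reached an unadjusted p under 0.05, and the offset between genotypes seen for Ube2t in 4 of 4 pairs was present for Kif14 in 1 pair. Whether Ube2t differs from these genes was not tested.

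**Figure D1:**
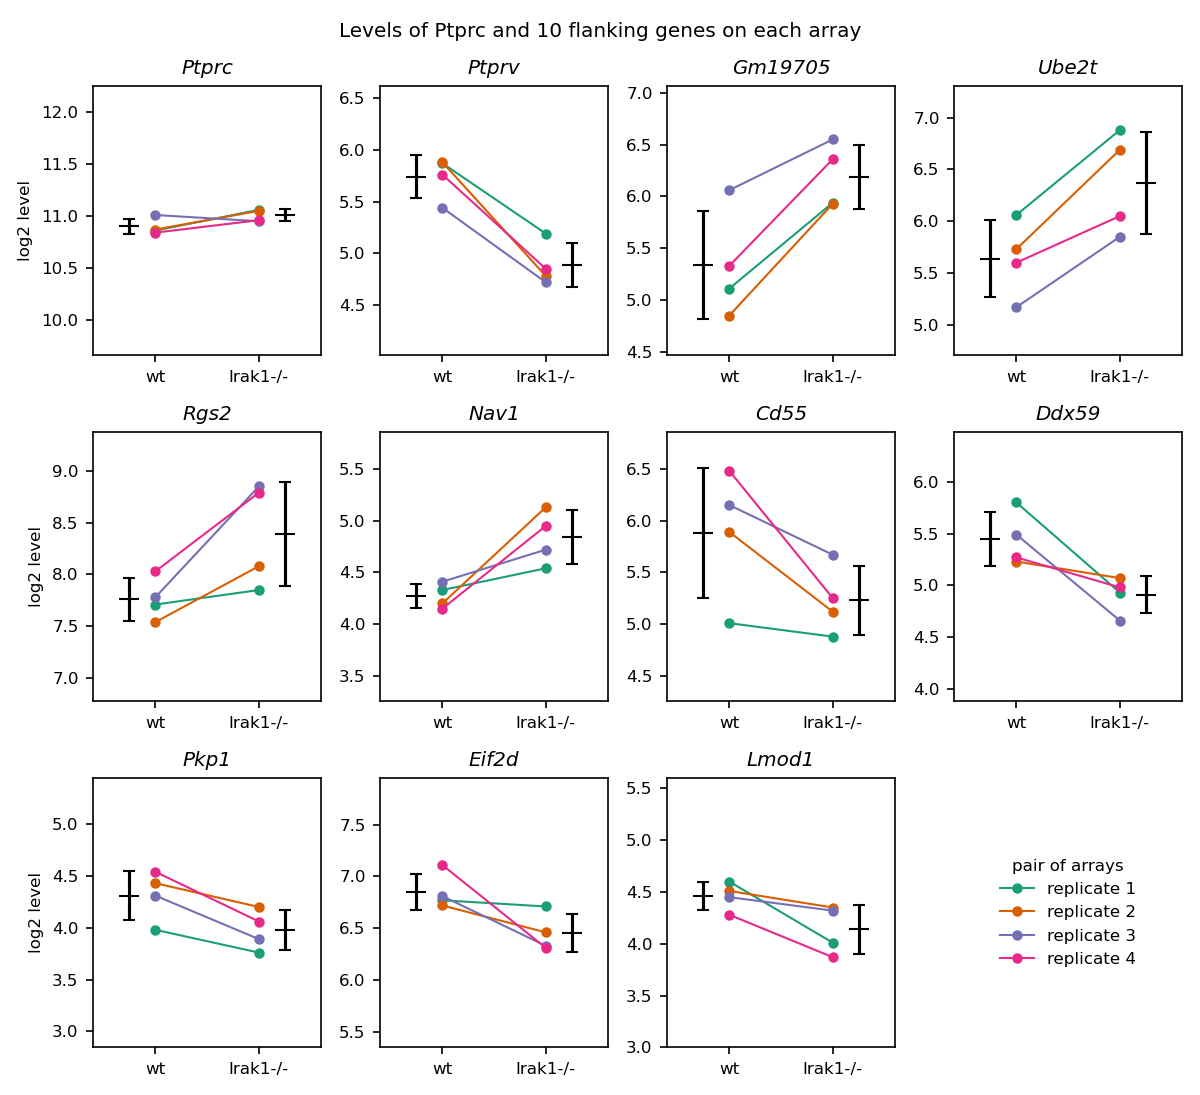
Log2 level (vertical axis) of Ptprc and of the 10 genes with an unadjusted p under 0.05 on each array; coloured points are arrays, lines join the wt and Irak1-/- arrays of a replicate, and black bars give mean ± SD over 4 arrays. All panels span the same log2 range, the lines of a gene run in the same direction except for Ptprc, and the groups are apart for Ptprv, Nav1, Ddx59 and Eif2d.

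Rgs1 and Rgs2 lie next to each other in the list and speed the shutdown of G proteins, Rgs2 mainly of the Gq class and Rgs1 downstream of chemokine receptors. Rgs2 read 7.71, 7.54, 7.78 and 8.03 on wt arrays and 7.85, 8.08, 8.85 and 8.79 on Irak1-/- arrays. The Irak1-/- arrays of replicates 3 and 4 were above all others, and that of replicate 1 lay within the wt range. This gave a difference of 0.63 on the log2 scale (SE 0.153), 1.55-fold, with a limma adjusted p of 0.401. A second probe set of Rgs2 read 5.69, 6.07, 6.40 and 6.62 on wt and 6.51, 6.67, 7.20 and 7.50 on Irak1-/- arrays, a difference of 0.78 (SE 0.107, limma adjusted p = 0.078 over all probe sets) in the same direction in 4 of 4 pairs. Rgs1 read between 8.63 and 9.14 on wt arrays and between 8.79 and 8.96 on Irak1-/- arrays, with a difference of -0.01 (95% confidence interval -0.28 to 0.26). In pairs 1 to 4 the differences of the first Rgs2 probe set were 0.14, 0.54, 1.07 and 0.76. The mean differences of the myeloid list were 0.79, 1.16, 1.27 and 1.25, with the lowest of both in pair 1. The second Rgs2 probe set did not have its lowest difference in pair 1. The part of the myeloid list in the Rgs2 difference was not tested. The other regulators of small GTPases, Rassf5, Srgap2, Rabif and Dennd1b, had differences from -0.12 to 0.22, and none of the 6 tested genes of this role was called.

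Among surface proteins and transporters, Cd55 stood out. It encodes the decay accelerating factor, which protects cells from complement, and read 5.01, 5.89, 6.15 and 6.48 on wt arrays and 4.88, 5.12, 5.67 and 5.25 on Irak1-/- arrays. The wt arrays spread widely, with an SD of 0.626 that was the largest of the 52 genes in wt, and the wt array of replicate 1 lay among the Irak1-/- arrays. The difference of -0.65 (SE 0.17) had a limma adjusted p of 0.426, with pair differences from -1.22 to -0.13 that were below 0 in 4 of 4 pairs. Atp2b4, a calcium pump of the plasma membrane, had -0.29 (95% confidence interval -0.60 to 0.02), lower in 3 of 4 pairs. Gpr25, an orphan G protein-coupled receptor, had 0.23, and its second probe set -0.17, with neither near the threshold. The adiponectin receptor Adipor1, the lysosomal protein Tmem9 and the magnesium transporter Slc41a1 had differences between -0.00 and 0.02, with confidence intervals that stayed within -0.26 and 0.29.

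Genes of the cytoskeleton and of cell junctions went both ways. Nav1, a protein that binds microtubule ends, read 4.33, 4.20, 4.41 and 4.15 on wt arrays and 4.54, 5.13, 4.72 and 4.95 on Irak1-/- arrays, with every Irak1-/- array above every wt array and a difference of 0.56 (SE 0.145), at a limma adjusted p of 0.423. Its second probe set went against this. It read 4.13, 4.02, 4.17 and 4.11 on wt and 3.82, 3.65, 3.75 and 4.08 on Irak1-/- arrays, a difference of -0.28 (SE 0.112, limma adjusted p = 0.714), lower in 4 of 4 pairs. The wt means of both lay near or under the array medians, and the mean of both probe sets gave 0.14, so the data settle no direction for Nav1. Pkp1, a plakophilin of desmosomes, read 3.98, 4.43, 4.31 and 4.54 on wt and 3.76, 4.20, 3.89 and 4.06 on Irak1-/- arrays, with a mean under every array median. Its difference was -0.34 (SE 0.109, limma adjusted p = 0.581). Lmod1, which nucleates actin filaments in smooth muscle, read 4.60, 4.51, 4.45 and 4.28 on wt and 4.01, 4.35, 4.32 and 3.87 on Irak1-/- arrays, a difference of -0.32 (SE 0.12, limma adjusted p = 0.66). For both genes the groups overlap although 4 of 4 pairs were lower, and how far such levels lie above background is unknown. Kif21b, Camsap2, Csrp1 and Ppp1r12b, which act on microtubules, actin or myosin, had differences from -0.08 to 0.21.

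Among genes of RNA processing and translation, Ddx59, a DEAD-box helicase, read 5.80, 5.23, 5.49 and 5.27 on wt arrays and 4.93, 5.07, 4.66 and 4.98 on Irak1-/- arrays. The groups do not overlap, and the differences were large in pairs 1 and 3, at -0.87 and -0.84, and small in pairs 2 and 4, at -0.17 and -0.29. The mean of the pairs was -0.54 (SE 0.148), at a limma adjusted p of 0.471. Eif2d, a factor that brings transfer RNA to the ribosome outside the main initiation route, read 6.77, 6.72, 6.81 and 7.11 on wt and 6.71, 6.46, 6.33 and 6.31 on Irak1-/- arrays. The groups just miss each other, with a lowest wt level of 6.72 and a highest Irak1-/- level of 6.71, and the difference was -0.40 (SE 0.138, limma adjusted p = 0.607). Snrpe, a core protein of the spliceosome, had 0.20, higher in 4 of 4 pairs, and Ppp1r15b, which restores translation after stress, had -0.01.

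No kinase and no chromatin gene came near the threshold. None of the 6 tested kinases and none of the 7 genes of transcription and chromatin reached an unadjusted p under 0.05. Pik3c2b, a class II phosphoinositide 3-kinase, read 4.84, 4.88, 4.72 and 4.67 on wt arrays and 4.89, 5.09, 4.96 and 4.90 on Irak1-/- arrays. Its groups do not overlap, but the gap is narrow and the difference of 0.19 (95% confidence interval -0.05 to 0.42, limma adjusted p = 0.825) did not pass. Ikbke, a kinase of the interferon and NF-kappaB responses, had -0.12, Mapkapk2, the kinase downstream of p38, -0.08, and Nek7, which licenses the NLRP3 inflammasome, -0.07. Dyrk3 had -0.28 and Cdk18 -0.17, each lower in 3 of 4 pairs, and the mean level of Cdk18 lay under every array median. Kdm5b, a histone demethylase, had 0.24, and Cdc73, Rbbp5, Zfp281, Elk4, Sox13 and Zbtb41 had differences from -0.10 to 0.12.

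The p53-linked genes and those of metabolism made up most of the remaining listed genes. Btg2, an antiproliferative gene induced by p53, read 9.62, 9.75, 10.12 and 10.05 on wt arrays and 9.47, 9.77, 9.53 and 9.63 on Irak1-/- arrays, with a difference of -0.29 (95% confidence interval -0.58 to 0.01, limma adjusted p = 0.774). Mdm4, an inhibitor of p53, had 0.05, and Phlda3, a p53 target that restrains Akt, had -0.10, while the chromatin-bound Nucks1 had -0.07. Of the 6 genes of mitochondria, metabolism and protein turnover, Cyb5r1 had 0.21 and Rnpep 0.18 at the upper end and Timm17a, part of the mitochondrial import machinery, -0.15 at the lower end. Uchl5, a deubiquitinase of the proteasome, had 0.12, the glutaredoxin Glrx2 -0.05 and the ubiquitin ligase adaptor Klhl12 -0.08. Altogether 42 of the 52 genes had an unadjusted p of 0.05 or more, with differences from -0.29 to 0.24, and 16 of the 42 were under 0.1 in size.

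**Figure D2:**
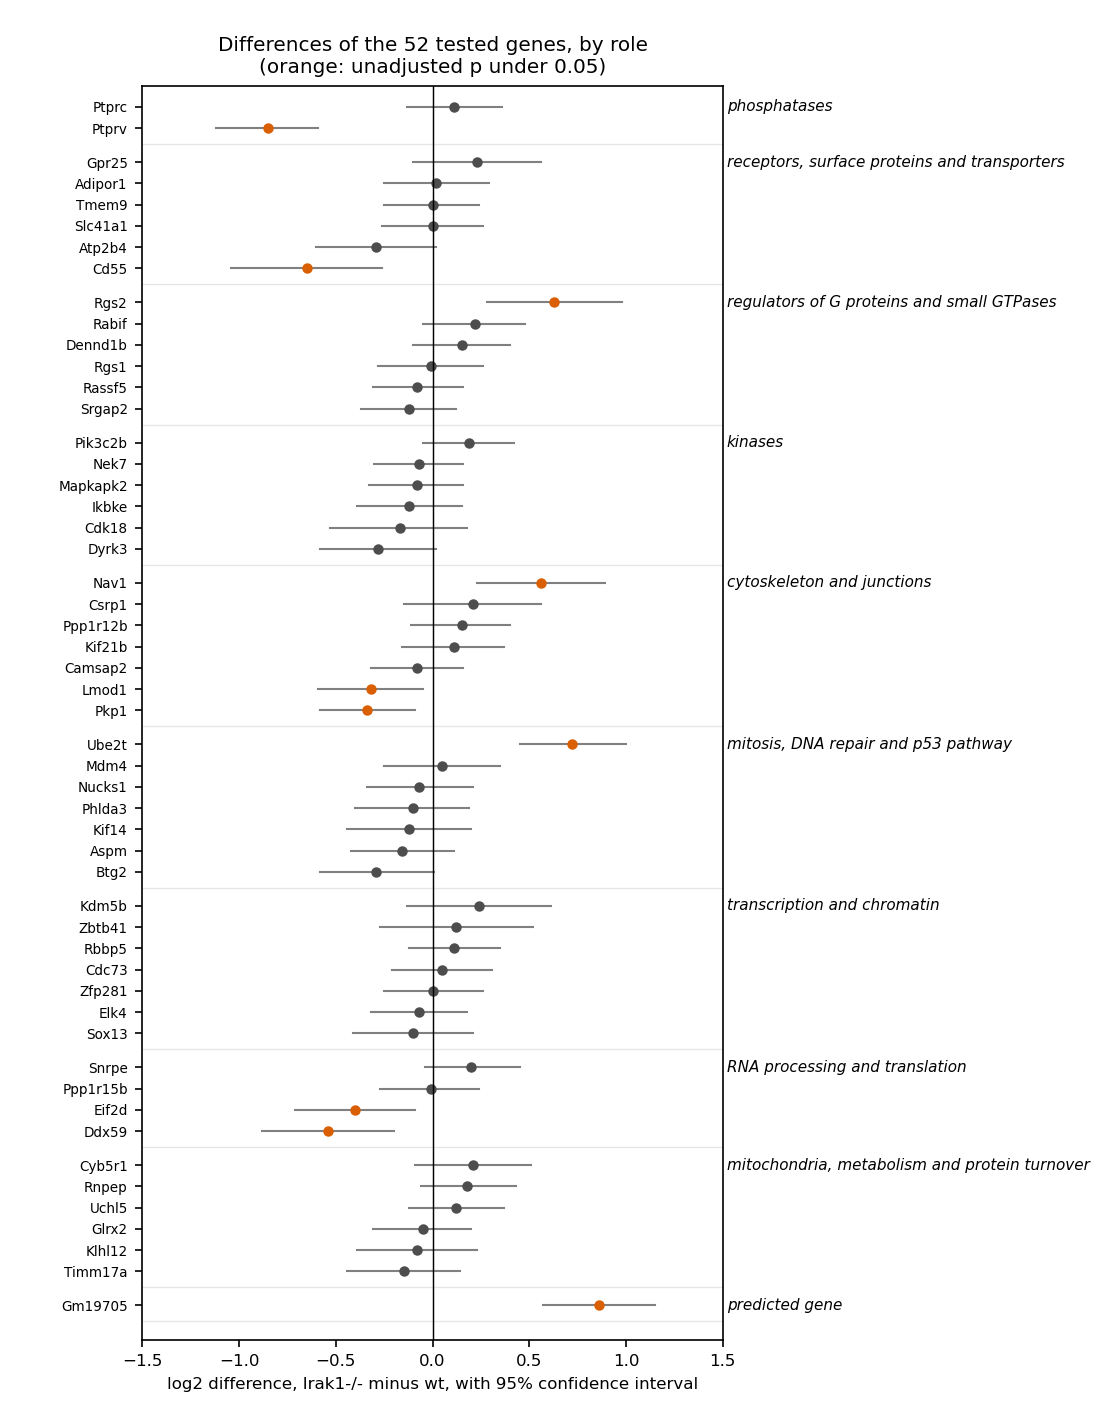
Log2 difference of each of the 52 tested genes (horizontal axis, Irak1-/- minus wt, limma fit with 4 pairs) with its 95% confidence interval, grouped by role; orange marks an unadjusted p under 0.05. The 10 orange genes are spread over 7 of the 10 roles, 4 to the right and 6 to the left of 0, and the intervals of the 42 others cross 0, with centres between -0.29 and 0.24.

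A difference above 0 in 4 of 4 pairs was seen for 10 of the 52 genes (19.2%), where 5.26% of all genes tested had it. A difference below 0 in 4 of 4 pairs was seen for 8 (15.4%), where 8.91% had it. Beside the genes above, Rnpep, Rabif, Snrpe, Pik3c2b, Rbbp5 and Dennd1b were higher in each pair and Nek7 and Srgap2 lower. Among all 102 tested genes of the window, listed or not, 16 (15.7%) were higher and 9 (8.82%) lower in each pair. Groups that do not overlap were found for 5 of the 52 genes (9.62%), against 3.04% of all genes tested. They were 2 in the higher direction (Nav1 and Pik3c2b), against 1.17%, and 3 in the lower direction (Ptprv, Ddx59 and Eif2d), against 1.86%. In the window, 6 of the 102 tested genes had such groups, or 5.88%, Ctse among them. The list was drawn up with earlier results of these data known, so its shares here are not evidence of their own. Replicates of a group varied about as much as elsewhere, with a median SD of 0.161 in wt and 0.155 in Irak1-/- arrays over the 52 genes and 0.166 and 0.191 over all genes tested. Kif14 had the largest SD in the Irak1-/- group, 0.7, and Camsap2 the smallest in wt, 0.044.

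Along the chromosome, genes on the higher and lower side were interspersed. From low to high coordinates, Cd55 and Eif2d were lower, Ube2t higher, Ptprv and Lmod1 lower, Nav1 higher by its main probe set, Pkp1 and Ddx59 lower, and Gm19705 and, beyond Ptprc, Rgs2 higher. Ube2t and Ptprv follow each other in this order with differences of 0.72 and -0.85. Of all 59 tested genes closer than 5 Mb to Ptprc, 7 had an unadjusted p under 0.05, or 11.9%, and their median absolute difference was 0.149. From 5 to 10 Mb it was 4 of 43 genes (9.3%) with a median of 0.115, from 10 to 20 Mb 6 of 68 (8.82%) with 0.0996, and on the rest of chromosome 1 45 of 585 (7.69%) with 0.0986, beside a median of 0.096 over all genes tested. The median SE was 0.128, 0.121, 0.121 and 0.124 in these classes. On the side of lower coordinates 10 of 88 tested genes within 10 Mb had that p, and on the other side 1 of 13. These shares were not tested against each other.

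**Figure D3:**
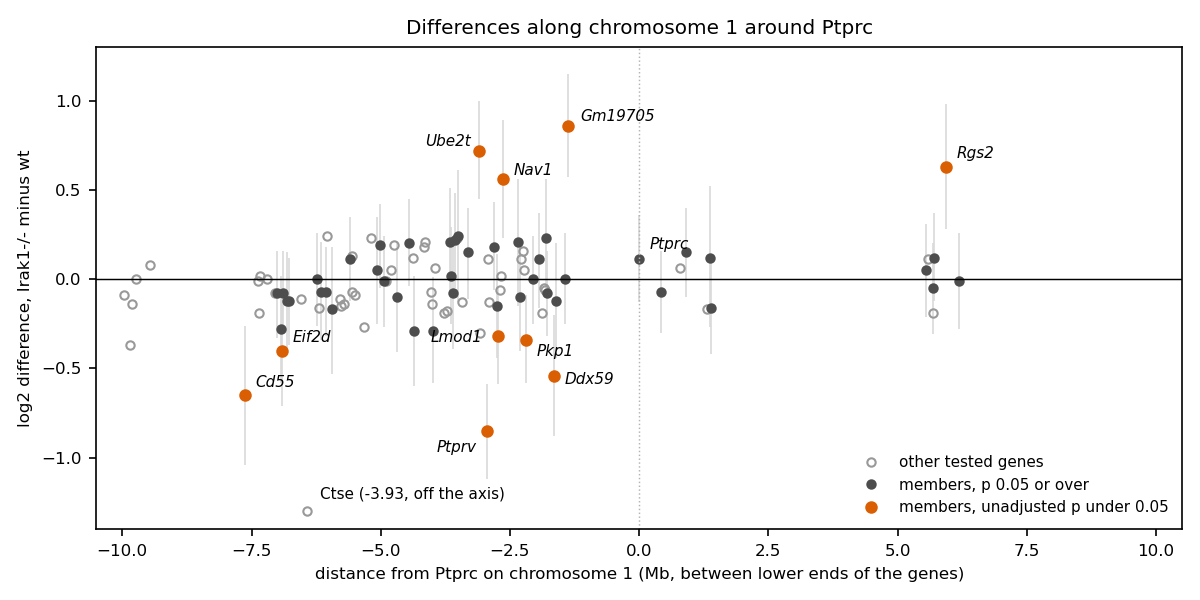
Log2 difference, Irak1-/- minus wt (vertical axis), against distance from Ptprc on chromosome 1 in Mb (horizontal axis); filled points are the 52 tested members with 95% confidence intervals, open circles the 50 other tested genes. Points above and below 0 lie side by side, with Gm19705 at 0.86 and Ptprv at -0.85 as the outermost members, and Ctse at -3.93 is drawn at the lower edge.

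Of the marker lists, only the myeloid list held genes that passed the adjusted threshold, and the pairs allow lists and flanking genes to be seen side by side. The mean difference of the myeloid list was 1.12, with 0.79, 1.16, 1.27 and 1.25 in pairs 1 to 4, and the median of its 10 tested genes was 0.57. The mean rests largely on the 4 called genes, Lyz2 at 4.16, Tyrobp at 2.47, Fcer1g at 1.89 and H2-Aa at 1.74. Csf1r had 0.72 and Spi1 0.42, each higher in 4 of 4 pairs. With them, 6 of the 10 tested genes were higher at an unadjusted p under 0.05 (limma), against 2.88% of all genes. Adgre1 had 0.27, Cd68 0.16, Itgam 0.05 and Cst3 -0.01, and Cd14, which read too low to be tested, had 0.43. The T cell list had 0.08, -0.04, -0.20 and -0.04, the B cell list -0.06, 0.03, -0.08 and -0.04, and the NK and CD8 T cell list -0.05, -0.24, -0.17 and -0.26. The platelet and erythroid list had -0.10, -0.06, -0.08 and -0.11. The stromal, endothelial and epithelial list had -0.36, 0.13, -0.02 and 0.12. No tested gene of the B cell, platelet or stromal lists had an unadjusted p under 0.05 (limma). In pair 1, where the myeloid list was lowest, 5 of the 10 genes had their difference of smallest size. The values were 0.14 for Rgs2, 0.21 for Nav1, -0.13 for Cd55, -0.68 for Ptprv and -0.06 for Eif2d. The second probe sets of Rgs2 and Nav1 had theirs in other pairs. With 4 pairs, some genes have their smallest difference in pair 1 by chance, and the share over all genes is not given here. Pkp1 had -0.22 in both pair 1 and pair 2, and the smallest difference lay in pair 2 for Ddx59, in pair 3 for Gm19705 and Lmod1 and in pair 4 for Ube2t. The part of these other cells in the differences of the flanking genes was not tested. Leaving out the array that stood apart, in a fit without pairs, gave differences of -0.80 for Ptprv, 0.74 for Gm19705, 0.90 for Ube2t, 0.48 for Rgs2 and -0.80 for Cd55, and none was called.

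**Figure D4:**
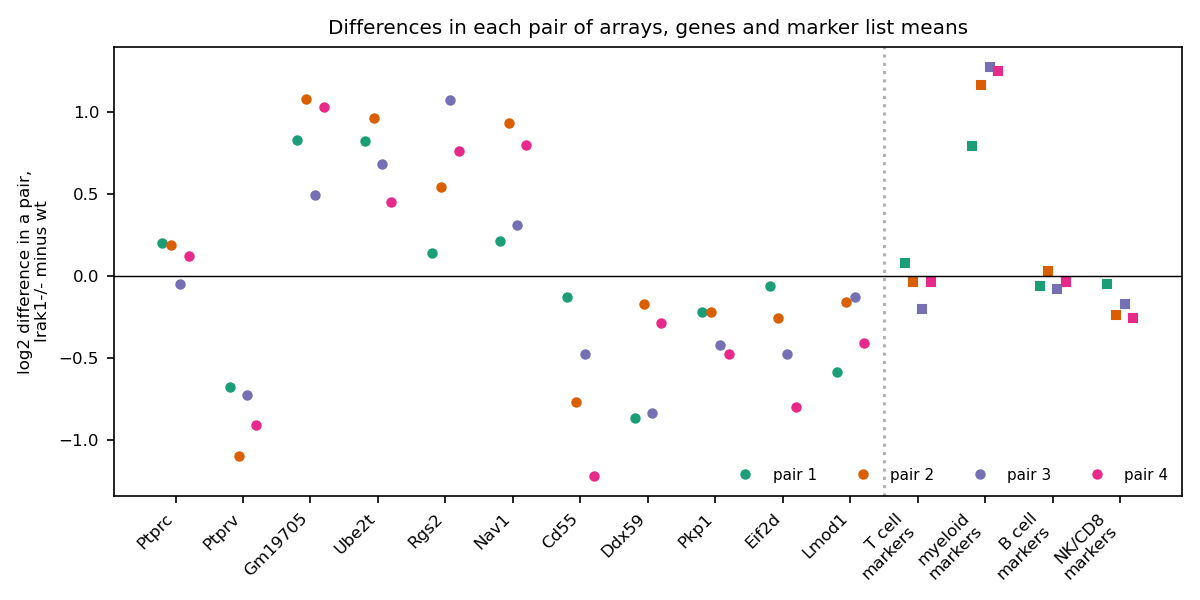
Log2 difference, Irak1-/- minus wt (vertical axis), in each of the 4 pairs of arrays for Ptprc and the 10 genes with an unadjusted p under 0.05 (circles), and for the means of 4 marker lists (squares). The myeloid list lies between 0.79 and 1.27 and the other lists drawn between -0.26 and 0.08. By the probe sets drawn, the myeloid list, Rgs2, Nav1, Cd55, Ptprv and Eif2d have their difference of smallest size in pair 1. Ddx59, Gm19705, Lmod1 and Ube2t have theirs in other pairs, and Pkp1 has -0.22 in both pair 1 and pair 2. The share of all genes with their smallest difference in pair 1 is not given, and a link to the myeloid list was not tested.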

How the data were processed

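The values that the authors deposited are log2 levels for 41345 probe sets on 8 arrays, from RNA extracted with TRIzol and labelled with biotin, per the labels' protocols; the log2 scale was inferred from the deposited values, which run from 0.681 to 13.996. How background was corrected and arrays were normalized is not given in the sources used. Nothing in the labels says that the transferred cells of the replicates came from separate donor mice, so p-values measure the spread between these samples.

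The platform annotation named the probe sets: 23521 have 1 symbol, 1814 several and 16010 none here. Symbols were updated by gene identifier for 23328 probe sets from the RefSeq table of GRCm38.p6, which served for names and neighbourhood. For each gene the probe set with the highest mean over 8 arrays was used. The test took genes whose mean reached the 40th percentile, 3.90.

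Irak1-/- was compared with wt by limma 3.58.1 (lmFit and eBayes) in R 4.3.3 on 13308 genes, with the batch label, which pairs arrays from the same hosts, as a block. Correlations of the deviations from the group means within pairs were 0.185, 0.143, 0.2 and 0.0799. Arrays of different pairs ran from -0.222 to 0.226, the highest being wt replicate 2 with Irak1-/- replicate 1, and wt replicate 4 also correlated better with Irak1-/- replicate 3, at 0.104, so the pairing rests on the labels. Tests were two-sided, and p was adjusted by the Benjamini-Hochberg method over all genes tested. Confidence intervals are at 95%. In simulated data, 100 genes per run were given a log2 change of 1 and 100 others a change of 2, over 3 runs. The procedure recovered 77.3% of those changed by 1. So many changed genes loosen the adjusted threshold, and only 10 genes were called in the data. The 77.3% is therefore not the share that the real comparison would recover. The members and lists were chosen with earlier results of these data known. All 57 members could be named, with values on each array for those at an unadjusted p under 0.05, those whose groups do not overlap and Ptprc, and others by role. The genes whose values are given for comparison, such as Kif14, Aspm, Rgs1 and Btg2, were picked after their values were seen. Alternatives were other block models, each replicate left out, quantile and median scaling, other level filters, mean of probe sets, trend and robust eBayes, and other windows. Testing every probe set was chosen after seeing the data.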

Additional observations from a re-analysis of the deposited data

Results flagged for a closer look

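The 104 groups of 4 arrays given by the 52 tested genes were searched for an array whose gap to its nearest neighbour, divided by the range of the group, was above Dixon's 95% critical value. That was so in 3 groups, or 2.88%, and a rule at this level picks about 1 in 20 groups by chance. Ptprc read 11.01 on the wt array of replicate 3, against 10.84 to 10.87 on the other wt arrays. Kif21b read 7.76 on the wt array of replicate 1, against 7.97 to 8.01. Sox13 read 4.82 on the Irak1-/- array of replicate 1, against 5.38 to 5.48. None of them is the Irak1-/- array of replicate 3.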

How the results depend on the processing

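Counts of called members were 0 higher and 0 lower. Ptprv was called, giving 1 lower member, with the block as a random effect, median centring, the 60th percentile filter and trend with robust eBayes. Gm19705 was called, giving 1 higher member, with that filter and without replicate 3, so the count of higher calls ran from 0 to 1 with each replicate left out. Members lower in every pair ran from 8 to 15 with each replicate left out, with 15 without replicate 1 and 14 without replicate 4, where 3 pairs remain. Groups that do not overlap, with 3 arrays a group, ran from 4 to 8 members higher, with 8 without replicate 3, and from 3 to 7 lower, with 7 without replicate 1 and without replicate 4. The higher count was 1 with median centring, 0 with the 60th percentile filter and 1 with the mean of probe sets. With 3 pairs, more genes move the same way in every pair or do not overlap by chance. The shares over all genes with 3 pairs are not given here, so the larger counts are not a result about the members. Genes within 10 Mb of Ptprc at an unadjusted p under 0.05 were 11, and 18 with no level filter, where more genes are tested; windows of 5 Mb and 20 Mb gave 7 and 17. Nav1 reversed to -0.28 with its other probe set; the cause was not tested. The counts of members at that p, 4 higher and 6 lower, ran from 3 to 5 and from 4 to 8 over the alternatives. Without the replicate block, which the labels' shared hosts call for, the adjusted p was 0.0792 for Ptprv, 0.653 for Gm19705 and 0.854 for Ube2t, and no member was called, as in the fit with the block. Directions of the 10 members and Ptprc held in every alternative in which they were tested, except for Nav1 with its other probe set. Levels near the array medians, as for Nav1, Pkp1 and Lmod1, limit what can be said of their size.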
